A study of Homo sapiens with 15 samples.

Results

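The metallothionein genes MT1A, MT1E, MT1F, MT1G, MT1M, MT1X and MT2A and the zinc exporter gene SLC30A1 were followed in the liver cancer line HepG2, an established human cell line, after knockdown of the ATPases of the SWI/SNF chromatin remodelling complex. The 8 genes were taken by symbol from the deposited table of 35012 genes, and all 8 were among the 14621 that passed the filter on low counts. Cells of every group were infected with hairpin-carrying lentivirus, selected with puromycin and harvested on day 5. The groups were a hairpin against BRG1 (the product of SMARCA4, 4 libraries), a hairpin against BRM (the product of SMARCA2, 3 libraries), both hairpins together (double knockdown, 4 libraries) and a non-silencing hairpin (NS, 4 libraries). All 15 libraries came from 1 cell line. Whether replicates were separate cultures is not labelled, and the p-values therefore rest on a spread between libraries that may be technical.

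Metallothioneins are small, cysteine-rich proteins that bind zinc and copper and take up cadmium, and the liver is one of their main sites of synthesis. When free zinc rises, the zinc-finger protein MTF1 enters the nucleus and binds metal response elements in the promoters of metallothionein genes and of SLC30A1. SLC30A1 (ZnT1) moves zinc out across the plasma membrane, so that the pair of responses lowers free zinc by storage and by export.

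Estimated counts summed per library to between 11500149 and 27187991. SMARCA4, the BRG1 hairpin's target, lay between 24.4 and 29.3 CPM (counts scaled to a common library size) in BRG1 knockdown libraries and between 39.1 and 52.0 CPM in double knockdown libraries, against 297 to 312 CPM in NS libraries. SMARCA2, the BRM hairpin's target, lay between 2.55 and 6.85 CPM in BRM knockdown libraries and between 2.23 and 2.84 CPM in double knockdown libraries, against 33.2 to 41.4 CPM in NS libraries. In BRG1 knockdown libraries SMARCA2 lay between 21.6 and 29.5 CPM, below every NS library. That log2 fold change of −0.61 ± 0.23 did not pass (edgeR adjusted p = 0.0712), but it passed once the replicate numbers entered the fit. The authors' deposited table for BRG1 knockdown gave −0.64 for SMARCA2 (adjusted p = 0.0219). In all 4 groups the libraries of replicates 3 and 4 differed from the libraries of replicates 1 and 2: 8134 genes, 55.6% of those tested, differed between these library sets, and mitochondrial genes took 1.33 to 3.55% of counts in the replicates numbered 3 and 4 and 4.97 to 8.33% in those numbered 1 and 2. The labels do not say what the numbers share, and values within each set stand beside the comparisons of the 8 genes with NS. Hepatocyte markers were all 10 detected in every group, and their summed level was 5779 to 20383 CPM in BRG1 knockdown, 51116 to 56093 CPM in BRM knockdown and 11824 to 27118 CPM in double knockdown, against 25310.4 to 39572 CPM in NS. The summed level of 4 cholangiocyte markers was 2879 to 5016 CPM in BRG1 knockdown, 515 to 1028 CPM in BRM knockdown and 1295 to 2776 CPM in double knockdown, against 1023 to 1505 CPM in NS. KRT19 made up most of that sum and was called higher after BRG1 knockdown alone, while SOX9 was called lower after BRM and double knockdown and KRT7 and EPCAM did not pass. The 5 stromal markers summed to 56.7 to 244.5 CPM in BRG1 knockdown, 13.4 to 25.9 CPM in BRM knockdown and 20.7 to 39.7 CPM in double knockdown, against 31.3 to 71.7 CPM in NS. COL1A1 alone had 239 CPM in BRG1 knockdown replicate 2. Only COL1A1 and PDGFRB of these markers were tested, and neither passed against NS in the fit with group means. The 7 blood and endothelial markers summed to 35.2 to 69.3 CPM in BRG1 knockdown, 64.4 to 87.6 CPM in BRM knockdown and 57.99 to 102.9 CPM in double knockdown, against 37.9 to 47.6 CPM in NS, with CD3E at 0 in every group. CD68 made up most of that sum and was called higher after BRM and double knockdown. PECAM1 was called lower after double knockdown, and the other tested markers of this list did not pass in the fit with group means. The part of these shifts in the results below was not tested.

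The promoters that the sequence table held are shown because the metal response element is the DNA element through which these genes answer zinc. The sequences are RefSeq's, build GRCh38.p14, and each is the 250 bases before the RefSeq start site, read 5′ to 3′ on the gene's own strand. The table matched 3 of the 8 genes. Capitals mark the 7-base core of the metal response element, TGCACNC or TGCGCNC on either strand. The windows are MT2A at chr16:56608334-56608583 on the plus strand, MT1X at chr16:56682220-56682469 on the plus strand and SLC30A1 at chr1:211579162-211579411 on the minus strand.
MT2A: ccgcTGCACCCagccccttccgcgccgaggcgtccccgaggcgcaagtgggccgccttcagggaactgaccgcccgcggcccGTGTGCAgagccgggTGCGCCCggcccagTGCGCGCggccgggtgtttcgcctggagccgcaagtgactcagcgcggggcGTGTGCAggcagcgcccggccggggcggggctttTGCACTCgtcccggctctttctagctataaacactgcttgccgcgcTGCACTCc
MT1X: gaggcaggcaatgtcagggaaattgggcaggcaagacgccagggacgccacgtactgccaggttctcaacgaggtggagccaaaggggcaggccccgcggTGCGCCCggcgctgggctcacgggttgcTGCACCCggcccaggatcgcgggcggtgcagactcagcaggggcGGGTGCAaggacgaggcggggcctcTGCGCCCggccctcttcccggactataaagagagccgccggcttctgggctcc
SLC30A1: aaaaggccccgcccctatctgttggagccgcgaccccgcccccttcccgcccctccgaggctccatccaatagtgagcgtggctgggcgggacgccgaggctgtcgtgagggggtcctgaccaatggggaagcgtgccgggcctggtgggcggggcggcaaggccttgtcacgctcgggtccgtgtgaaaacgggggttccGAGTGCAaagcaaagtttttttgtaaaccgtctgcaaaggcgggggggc
The MT2A window held 7 cores, 5 of the form TGCACNC and 2 of the form TGCGCNC, which lay between 246 and 2 bases before the start. It also held 1 AP-1 motif (TGACTCA), 104 to 98 bases before the start, and 2 SP1 boxes (GGGCGG). The MT1X window held 4 cores and 2 SP1 boxes, 1 of which shared 2 bases with a core, and the SLC30A1 window held 1 core and 6 SP1 boxes, a pair of which shared 1 base. Among 35116 promoters of the same length, searched on both strands, 24.8% held at least 1 core, 0.370% at least 4 and 0.0313% at least 7. At least 1 AP-1 motif stood in 4.203% of them and at least 1 SP1 box in 42.6%. These are letter matches, not measured binding sites. The RefSeq starts of MT2A and MT1X lie inside the GENCODE spans given below, and that of SLC30A1 lies upstream of its span.

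All 7 metallothionein genes lie in 1 cluster on chromosome 16, from 56608199 to 56684196 on GRCh38 (GENCODE v29), a span of 76.0 kb. In map order they are MT2A (ENSG00000125148.6, 56608199 to 56609497), MT1E (ENSG00000169715.14, 56625475 to 56627112), MT1M (ENSG00000205364.3, 56632233 to 56633986), MT1A (ENSG00000205362.11, 56638666 to 56640087), MT1F (ENSG00000198417.6, 56657694 to 56660698), MT1G (ENSG00000125144.13, 56666731 to 56668065) and MT1X (ENSG00000187193.8, 56682424 to 56684196). MT1G alone is on the minus strand. SLC30A1 (ENSG00000170385.9) lies on the minus strand of chromosome 1, from 211571568 to 211578742.
The paralogs are alike in sequence, and estimated counting divides reads that fit more than 1 transcript. The share of a gene's 31-base stretches that also occur in another gene was 23.8% for MT1M, 23.3% for MT1G, 19.8% for MT1X, 18.9% for MT1A, 15.6% for MT1E, 7.25% for MT2A, 3.25% for MT1F and 0 for SLC30A1. For MT1X most of that share is AC026461.1, a transcript that overlaps it on the same strand, so MT1X values are uncertain in that respect. Values of the single MT1 genes rest in part on how shared reads were divided.

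MT2A, which codes for the most widely expressed human metallothionein, and the isoform gene MT1A rose after BRG1 knockdown and after double knockdown, and MT1M rose after double knockdown. With the replicate number as a block MT1E was also called in both comparisons and MT1M in the BRG1 comparison. MT1F, MT1G and MT1X did not pass in either comparison. After BRM knockdown none of the 8 passed the same test. All calls are edgeR quasi-likelihood tests over 14621 genes, called at a Benjamini-Hochberg adjusted p under 0.05.

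**Figure D1:**
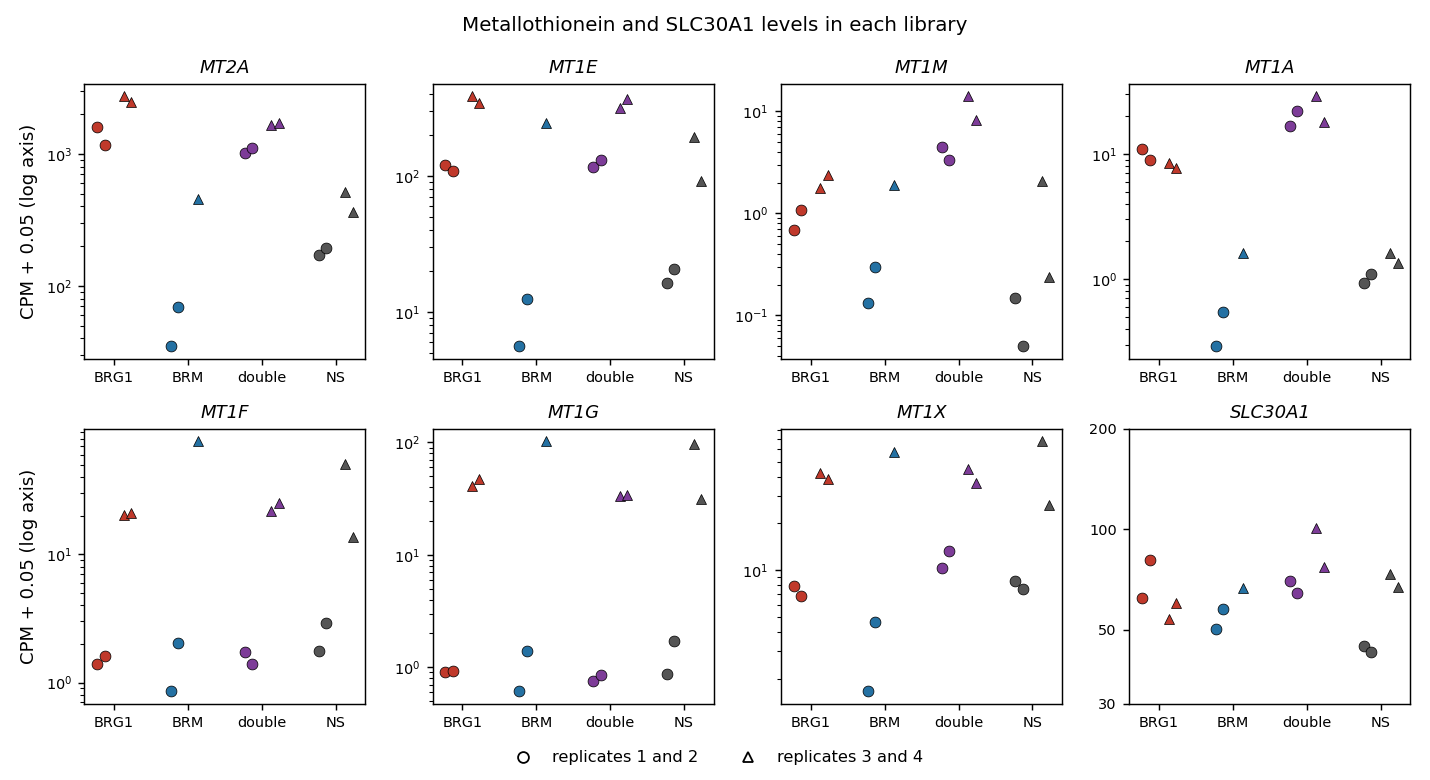
CPM plus 0.05 on a log axis for each gene, by group, with circles for replicates numbered 1 and 2 and triangles for those numbered 3 and 4. Every BRG1 and double knockdown library lies above every NS library for MT2A and MT1A. In all 4 groups the triangles lie above the circles for MT2A, MT1E, MT1M, MT1F, MT1G and MT1X.

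MT2A had 1609, 1162, 2739.9 and 2480.3 CPM in BRG1 knockdown libraries 1 to 4. It had 1021, 1111, 1659.9 and 1708 CPM in the double knockdown libraries, against 172, 194, 519 and 362 CPM in the NS libraries. Every BRG1 and every double knockdown library lay above every NS library, and within each set the order was the same. The mean was 1998 ± 738 CPM in BRG1 knockdown and 1375 ± 359 CPM in double knockdown, against 312 ± 162 CPM in NS (SD, n = 4 each). The log2 fold change was 2.68 ± 0.65 after BRG1 knockdown (SE, edgeR adjusted p = 0.00848) and 2.14 ± 0.64 after double knockdown (SE, edgeR adjusted p = 0.0267). With the replicate block they were 2.78 ± 0.40 (edgeR adjusted p = 0.000239) and 2.30 ± 0.39 (edgeR adjusted p = 0.000717). The BRG1 call held with each of the 15 libraries left out in turn. The double knockdown call was lost without the filter on low counts (adjusted p = 0.0539). It held in 10 of 15 and was lost without double knockdown replicate 3 or 4 or NS replicate 1, 2 or 4 (adjusted p up to 0.0793). With the set as a term it held in all 15.

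MT1A, a metallothionein-1 isoform gene, stood at far lower levels. Its CPM was 10.9, 8.94, 8.40 and 7.66 in BRG1 knockdown libraries and 16.8, 21.9, 28.9 and 18.1 in double knockdown libraries, against 0.874, 1.04, 1.57 and 1.30 in NS libraries. The 3 groups did not overlap, with every double knockdown library above every BRG1 library and every BRG1 library above every NS library. It rose by 2.92 ± 0.39 on the log2 scale after BRG1 knockdown (SE, edgeR adjusted p = 0.000123) and by 4.17 ± 0.40 after double knockdown (SE, edgeR adjusted p = 1.06e-05). Both calls held with each of the 15 libraries left out. The counts behind these values were 798 in BRG1 knockdown and 1769 in double knockdown, against 76 in NS.

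Of the 8 genes, 2 rose and 0 fell after BRG1 knockdown, where 22.5% of all genes tested were called and 12.5% were called higher. After double knockdown 3 rose and 0 fell, where 21.6% were called and 11.8% were called higher. The median log2 fold change of the 8 was 0.81 after BRG1 and 1.001 after double knockdown, beside 0.02 in each over all genes tested. With the replicate block 4 of the 8 rose in each comparison, where 36.4% and 35.6% of all genes were called.

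MT1E, another metallothionein-1 isoform gene, passed once the replicate numbers entered the fit. Its CPM was 121, 109, 388 and 348 in BRG1 knockdown libraries and 117.4, 132, 318 and 372 in double knockdown libraries, against 16.2, 20.7, 194 and 91.9 in NS libraries. Each knockdown library lay above the NS library of the same number, and above both NS libraries of its own set, but libraries 1 and 2 of either knockdown lay inside the NS range as a whole. Without the block the log2 fold change was 1.58 ± 1.01 after BRG1 knockdown (edgeR adjusted p = 0.301) and 1.54 ± 1.01 after double knockdown (edgeR adjusted p = 0.317). With the block it was 2.11 ± 0.52 (edgeR adjusted p = 0.00896) and 2.17 ± 0.53 (edgeR adjusted p = 0.00841). Within replicates 3 and 4 MT1E rose by 1.33 ± 0.31 after BRG1 and 1.23 ± 0.31 after double knockdown (edgeR adjusted p = 0.0199 and 0.0203). Within replicates 1 and 2 it rose by 2.65 ± 0.30 and 2.77 ± 0.30 (edgeR adjusted p = 0.000273 and 0.000425). The difference between sets did not pass for either (edgeR adjusted p = 0.153 and 0.116).

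MT1M, the lowest of the 8 by counts, rose after double knockdown. Its CPM was 4.37, 3.31, 14.05 and 8.24 in double knockdown libraries, against 0.0971, 0, 2.03 and 0.186 in NS libraries. All 4 double knockdown libraries lay above all 4 NS libraries, and NS replicate 3 stood well above the other NS libraries. The log2 fold change was 3.85 ± 1.04 (SE, edgeR adjusted p = 0.0161), or 4.26 ± 0.60 with the block (edgeR adjusted p = 0.000133). Without double knockdown replicate 3 the adjusted p was 0.0549, and with any other library left out the call held. BRG1 knockdown libraries had 0.631, 1.03, 1.74 and 2.31 CPM, a log2 fold change of 1.45 ± 1.02 that did not pass (edgeR adjusted p = 0.351). It passed with the block (1.99 ± 0.63, edgeR adjusted p = 0.0237) and without NS replicate 3 (adjusted p = 0.0258). With the set as a term it passed (adjusted p = 0.0465), and that call held in 4 of 15 with a library left out (adjusted p up to 0.139). NS libraries held 28 MT1M counts in all, 22 of them in replicate 3, so its folds against NS rest on few reads.

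**Figure D2:**
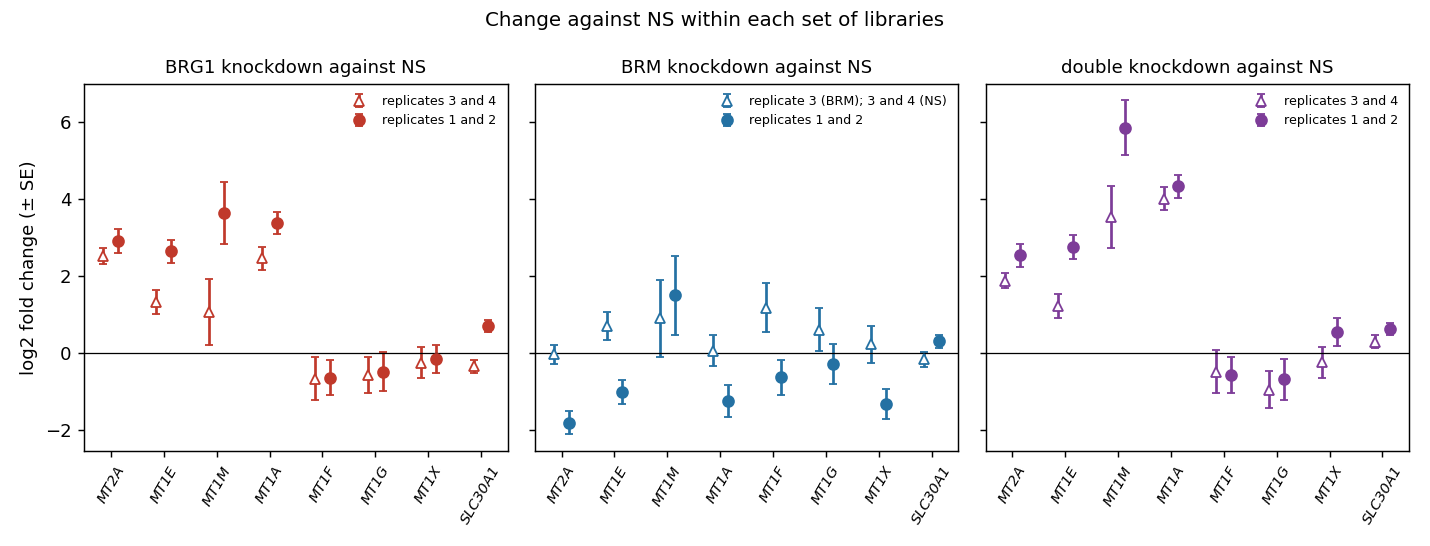
Log2 fold change against NS (± SE, edgeR) fitted within each library set, by gene and knockdown, with open triangles for replicates 3 and 4 and filled circles for replicates 1 and 2. After BRG1 and double knockdown MT2A, MT1E, MT1M and MT1A lie above 0 in both sets. BRM has 1 library in the set of replicates 3 and 4.

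Within replicates 3 and 4 alone, 3 of 8 genes rose after BRG1 knockdown and 4 after double knockdown, where 25.5% and 34.3% of all genes were called. Within replicates 1 and 2 alone, 5 of 8 rose in each comparison, where 39% and 29.5% were called. In replicates 3 and 4, MT2A rose by 2.53 ± 0.21 after BRG1 and 1.89 ± 0.20 after double knockdown (SE, edgeR adjusted p = 8.47e-05 and 0.000238). Within replicates 1 and 2 it rose by 2.92 ± 0.31 and 2.54 ± 0.30 (SE, edgeR adjusted p = 0.000158 and 0.000563). MT1A rose in both sets too, by 2.47 ± 0.30 in replicates 3 and 4 and 3.38 ± 0.30 in replicates 1 and 2 after BRG1 knockdown (edgeR adjusted p = 0.000674 and 4.5e-05). After double knockdown its values were 4.01 ± 0.30 and 4.34 ± 0.30 (edgeR adjusted p = 4.84e-05 and 4.22e-05). MT1M passed in both sets after double knockdown (3.54 ± 0.81 in replicates 3 and 4, 5.86 ± 0.71 in replicates 1 and 2, edgeR adjusted p = 0.0174 and 0.000501). After BRG1 knockdown MT1M passed in replicates 1 and 2 (3.64 ± 0.80, edgeR adjusted p = 0.00655) and not in replicates 3 and 4 (1.08 ± 0.86, edgeR adjusted p = 0.407), and the difference between sets did not pass (edgeR adjusted p = 0.333).

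MT1F, MT1G and MT1X, isoform genes at the far end of the cluster, differed between library sets and did not pass in any knockdown comparison with NS over all libraries. MT1G had 40.6 and 47.0 CPM in BRG1 knockdown replicates 3 and 4 and 0.868 and 0.879 CPM in replicates 1 and 2. In BRM knockdown it had 102 CPM in replicate 3 and 0.564 and 1.35 CPM in replicates 1 and 2, and in double knockdown 33.6 and 34.04 CPM in replicates 3 and 4 and 0.711 and 0.809 CPM in replicates 1 and 2. In NS it had 96.3 and 31.5 CPM in replicates 3 and 4 and 0.825 and 1.68 CPM in replicates 1 and 2. The sets did not overlap in any group, and in the set of replicates 3 and 4 the NS replicate 3 library stood above all BRG1 and double knockdown libraries. MT1F ranged from 13.5 to 76.2 CPM in replicates 3 and 4 and from 0.806 to 2.88 CPM in replicates 1 and 2. MT1X ranged from 26.2 to 67.4 CPM in replicates 3 and 4 and from 1.61 to 13.3 CPM in replicates 1 and 2.

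Against NS, the log2 fold changes after BRG1 knockdown were −0.64 ± 1.40 for MT1F, −0.54 ± 1.70 for MT1G and −0.20 ± 0.98 for MT1X (edgeR adjusted p = 0.806, 0.87 and 0.915). After double knockdown they were −0.45 ± 1.39, −0.90 ± 1.71 and −0.05 ± 0.98 (edgeR adjusted p = 0.869, 0.77 and 0.983). With the block, MT1G was −0.75 ± 0.32 after double knockdown (edgeR adjusted p = 0.0873) and MT1X 0.26 ± 0.36 (edgeR adjusted p = 0.606), so the sign of MT1X turned. Within replicates 3 and 4, MT1F, MT1G and MT1X had log2 fold changes of −0.66, −0.57 and −0.24 after BRG1 and −0.48, −0.95 and −0.23 after double knockdown. Within replicates 1 and 2 they had −0.64, −0.48 and −0.14 after BRG1 and −0.56, −0.68 and 0.55 after double knockdown. None of these passed (edgeR adjusted p from 0.178 to 0.792).

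Fitted with the set as a term, replicates 3 and 4 exceeded replicates 1 and 2 in 6 of the 8 genes, where 55.6% of all genes differed between sets and 27.3% were higher in replicates 3 and 4. The log2 difference of replicates 3 and 4 over replicates 1 and 2 was 5.85 ± 0.28 for MT1G, 4.24 ± 0.33 for MT1F, 2.61 ± 0.30 for MT1X, 2.54 ± 0.38 for MT1E, 1.98 ± 0.44 for MT1M and 1.37 ± 0.28 for MT2A (edgeR adjusted p from 1.81e-08 to 0.00149). MT1A (0.34 ± 0.22, edgeR adjusted p = 0.211) and SLC30A1 (0.26 ± 0.13, edgeR adjusted p = 0.0958) did not pass. MT1A passed within each library set after BRG1 and after double knockdown.

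**Figure D3:**
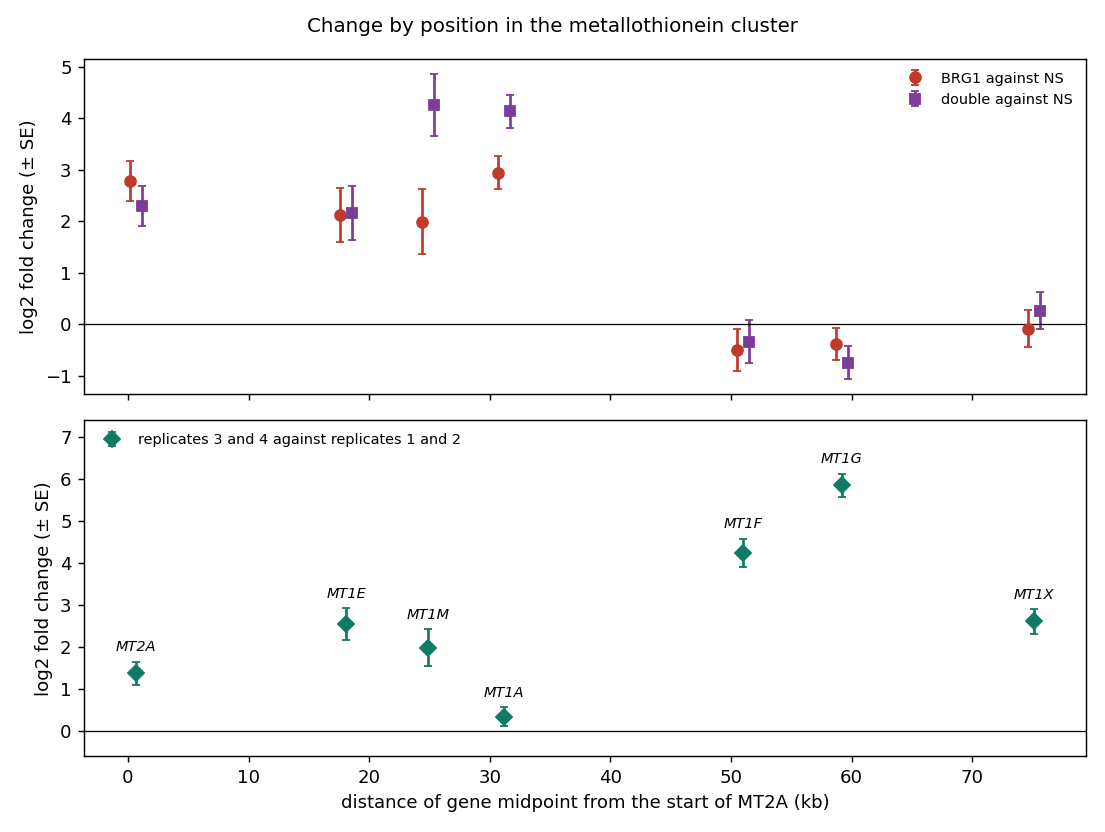
Log2 fold change (± SE, edgeR) of the 7 metallothionein genes against the distance of each gene's midpoint from the start of MT2A, with the replicate block for BRG1 (circles) and double knockdown (squares) against NS in the upper panel, and replicates 3 and 4 over replicates 1 and 2 in the lower panel. MT2A, MT1E, MT1M and MT1A, the first 4 by position, lie between 1.99 and 4.26 above, while MT1F, MT1G and MT1X lie between −0.75 and 0.26.

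By position, the 4 genes that passed with the block in the BRG1 and double knockdown comparisons, MT2A, MT1E, MT1M and MT1A, are neighbours at one end of the cluster among the 7, and MT1F, MT1G and MT1X fill the other end. The other family genes between them were too low for the test. MT1L, a transcribed pseudogene between MT2A and MT1E, had 35 counts in BRG1 knockdown and 24 in double knockdown, against 1 in NS. Scaled by library size, that is a ratio of 26.0 over NS after BRG1 (exact binomial 95% interval 4.37 to 1057) and 19.9 after double knockdown (3.24 to 817). MT1JP, a transcribed pseudogene between MT1M and MT1A, had 22 counts in BRG1 knockdown and 26 in double knockdown, against 6 in NS, ratios of 2.73 (1.07 to 8.22) and 3.59 (1.44 to 10.7). MT1B, a protein-coding gene between MT1A and MT1F, had 5 counts in BRG1 knockdown and 8 in double knockdown, against 10 in NS, ratios of 0.372 (0.0997 to 1.19) and 0.662 (0.227 to 1.86). These intervals cover counting error only, and MT1JP shares stretches with MT1M and MT1E. In all, 13 further metallothionein genes and pseudogenes were in the table and none passed the filter.

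The nearest tested protein-coding genes outside the cluster were BBS2, 87.9 kb before MT2A, and NUP93, 45.9 kb after MT1X. BBS2 had log2 fold changes of 0.21 ± 0.15 after BRG1 knockdown, −0.16 ± 0.16 after BRM knockdown and 0.27 ± 0.15 after double knockdown, and none passed (edgeR adjusted p from 0.223 to 0.594). NUP93 had 0.07 ± 0.31, −0.31 ± 0.34 and −0.25 ± 0.31, and none passed (edgeR adjusted p from 0.623 to 0.904). Farther out, NUDT21, 156.0 kb before, fell by 0.66 ± 0.15 after BRG1 knockdown (edgeR adjusted p = 0.00568), and NLRC5, 305.3 kb after, fell by 2.02 ± 0.30 after BRG1 and 1.16 ± 0.29 after double knockdown (edgeR adjusted p = 0.000263 and 0.00961).

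Per kilobase of the principal transcript, MT2A had the highest mean level of the 8 in every group, at 2542 CPM per kb in BRG1 knockdown, 238 in BRM knockdown and 1749 in double knockdown, against 397 in NS. MT1E came next in every group, at 343 CPM per kb in BRG1 knockdown, 125 in BRM knockdown and 334 in double knockdown, against 115 in NS. In BRG1 and double knockdown the MT2A range lay wholly above the MT1E range and the MT1E range above that of the gene after it. In BRM knockdown and in NS the ranges of these neighbours overlapped. MT1G, MT1X and MT1F held middle places with overlapping ranges in all groups. MT1A stood at 22.7 CPM per kb in BRG1 knockdown, 1.94 in BRM knockdown and 54.0 in double knockdown, against 3.02 in NS, which placed it at 5, 7, 4 and 7 among the 8. SLC30A1 held 10.6 to 14.3 CPM per kb on average in the knockdowns and 10.4 in NS, and MT1M was the lowest of the 8 in every group. These ranks are approximate, because counts over all transcripts of a gene were divided by the full length of a single transcript. For MT1X that length was 450 bases, where its exons cover 1773 bases.

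Levels were also summed over the 7 metallothionein genes and the 13 further family genes and pseudogenes among the deposited counts. This sum does not depend on how reads were divided among these genes. Reads that MT1X shares with AC026461.1, which is outside the sum, can still affect it. The sum was 1752, 1290.5, 3242 and 2945 CPM in BRG1 knockdown libraries and 43.8, 90.0 and 944 CPM in BRM knockdown libraries. It was 1172, 1284, 2123 and 2203 CPM in double knockdown libraries, against 201, 227, 932 and 527 CPM in NS libraries. All BRG1 and double knockdown libraries lay above all NS libraries, and the BRM libraries lay on both sides. The ratio of means over NS was 4.89 after BRG1 knockdown, 0.762 after BRM knockdown and 3.59 after double knockdown. Within replicates 3 and 4 the ratios were 4.24, 1.29 and 2.97, and within replicates 1 and 2 they were 7.10, 0.313 and 5.74. These sums are described without a test. MT2A made up 84.2 to 91.8% of the sum in BRG1 knockdown, 48.4 to 79.8% in BRM knockdown and 77.5 to 87.1% in double knockdown, against 55.7 to 85.9% in NS. In bulk samples, fewer cells that express a gene and less of its RNA per cell cannot be told apart.

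After BRM knockdown none of the 8 passed, where 13.9% of all genes tested were called. The edgeR test gave 0 of 8 at an unadjusted p under 0.05 as well, and DESeq2 also called 0. MT2A had 35.0, 69.0 and 457 CPM in BRM knockdown libraries 1 to 3, against 172, 194, 519 and 362 CPM in the NS libraries. BRM replicates 1 and 2 lay below every NS library and replicate 3 lay among the NS libraries of its set. The log2 fold change was −0.74 ± 0.67 (edgeR adjusted p = 0.548). Within replicates 3 and 4 it was −0.03 ± 0.24 (edgeR adjusted p = 0.951), with 1 BRM library assumed to vary like the other groups, and within replicates 1 and 2 it was −1.81 ± 0.30 (edgeR adjusted p = 0.00323). The effect differed between sets by 1.86 ± 0.42 (edgeR adjusted p = 0.0377), where 2.26% of all genes differed in this way.

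Within replicates 1 and 2, 3 of 8 genes passed after BRM knockdown, MT2A, MT1X and MT1E, where 28.1% of all genes were called. MT1X fell by 1.31 ± 0.39 (edgeR adjusted p = 0.0339) and MT1E fell by 1.002 ± 0.31 (edgeR adjusted p = 0.0428). Within replicates 3 and 4 they had log2 fold changes of 0.23 ± 0.48 and 0.71 ± 0.37 that did not pass (edgeR adjusted p = 0.77 and 0.21), and the differences between sets did not pass for MT1X or MT1E (edgeR adjusted p = 0.213 and 0.104). Without BRM replicate 3, MT2A fell by 2.62 and MT1A by 1.62 on the log2 scale over all remaining libraries (edgeR adjusted p = 0.00816 and 0.0185), and 2 of 8 passed where 12% of all genes were called. MT1F, MT1G, MT1M and MT1A did not pass after BRM knockdown in either set, and MT1F, MT1G and MT1A had opposite signs in the sets, at 1.19, 0.61 and 0.0722 in replicates 3 and 4 and −0.63, −0.29 and −1.24 in replicates 1 and 2. BRM replicates 1 and 2 held 69 and 246 counts of MT1E and 3 and 10 counts of MT1A, so the MT1A values there rest on few reads.

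SLC30A1, the zinc exporter gene, did not pass in any comparison with NS in the main fit with group means. It had 62.1, 80.9, 53.9 and 59.99 CPM in BRG1 knockdown libraries, 50.3, 57.7 and 66.6 CPM in BRM knockdown libraries and 70.1, 64.5, 101 and 77.2 CPM in double knockdown libraries. In NS libraries it had 44.5, 42.8, 73.4 and 67.2 CPM. All groups overlapped, with the double knockdown above the same-numbered NS library in 4 of 4. The log2 fold change was 0.17 ± 0.21 after BRG1, 0.03 ± 0.23 after BRM and 0.46 ± 0.21 after double knockdown (edgeR adjusted p = 0.627, 0.954 and 0.137). With the set as a term the double knockdown value was 0.47 ± 0.17 and passed (edgeR adjusted p = 0.0436), in a fit where 38.6% of all genes were called, and with the block it did not (edgeR adjusted p = 0.0606). The call with the set term held in 5 of 15 with a library left out (adjusted p up to 0.203). After double knockdown the value was 0.30 ± 0.16 in replicates 3 and 4 and did not pass (edgeR adjusted p = 0.188), and 0.63 ± 0.16 in replicates 1 and 2 and passed (edgeR adjusted p = 0.0186), and the difference between sets did not pass (edgeR adjusted p = 0.541). After BRM knockdown it was −0.16 ± 0.20 and 0.31 ± 0.16 in these sets, and neither passed (edgeR adjusted p = 0.609 and 0.183).

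The BRG1 effect on SLC30A1 differed between the library sets. In replicates 3 and 4 both BRG1 libraries lay below both NS libraries, at a log2 fold change of −0.34 ± 0.16 that did not pass (edgeR adjusted p = 0.163). In replicates 1 and 2 both lay above both NS libraries and SLC30A1 rose by 0.71 ± 0.16 (edgeR adjusted p = 0.00745). The difference between the sets was −1.01 ± 0.24 (edgeR adjusted p = 0.0429), where 2.49% of all genes differed in this way. MT2A and MT1A had effects of 1 sign in both sets after BRG1 knockdown, and their differences between sets of −0.35 ± 0.38 and −0.88 ± 0.45 did not pass (edgeR adjusted p = 0.603 and 0.259).

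Between knockdowns, MT1A was higher in double than in BRG1 knockdown, at 21.4 ± 5.43 CPM in double and 8.97 ± 1.38 CPM in BRG1 knockdown (SD, n = 4 each). The log2 difference was 1.25 ± 0.34 (SE, edgeR adjusted p = 0.0301), and 1 of 8 genes passed where 10.8% of all genes did. This call was lost without BRG1 replicate 2, 3 or 4 or double knockdown replicate 2 or 3 (adjusted p up to 0.0805), and it held in all 15 with the set as a term. MT1M was higher by 2.39 ± 0.93 in double than in BRG1 knockdown and did not pass (edgeR adjusted p = 0.122). With the set as a term the MT1M difference was 2.36 ± 0.55 and passed (edgeR adjusted p = 0.00565), in a fit where 25.5% of all genes were called. MT2A differed by −0.54 ± 0.61 and did not pass (edgeR adjusted p = 0.689).

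Against BRM knockdown, double knockdown was higher for MT1A by 4.71 ± 0.47, for MT1M by 3.29 ± 1.10 and for MT2A by 2.88 ± 0.74 (SE, edgeR adjusted p = 1.39e-05, 0.0497 and 0.0134). That is 3 of 8 where 19.1% of all genes were called. The MT1M call lay at the threshold, held in 4 of 15 with a library left out and had an adjusted p of 0.168 without BRM replicate 2, and the MT2A call was lost without that library (adjusted p = 0.0633). BRG1 knockdown was higher than BRM knockdown for MT1A by 3.46 ± 0.45 and for MT2A by 3.42 ± 0.76 (SE, edgeR adjusted p = 4.24e-05 and 0.00292), 2 of 8 where 33.9% of all genes were called. With the block MT1E passed as well, at 2.43 ± 0.62 (edgeR adjusted p = 0.00738), making 3 of 8 where 49.4% were called. Within replicates 1 and 2 alone, 5 of 8 passed between BRG1 and BRM knockdown, where 50.1% of all genes were called.

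The interaction asked whether the double knockdown differed from the sum of the single effects on the log2 scale. None of the 8 passed, where 0.499% of all genes did. MT1A alone had an unadjusted p under 0.05 (0.00623), at an interaction of 1.80 ± 0.56 (edgeR adjusted p = 0.178). DESeq2 called 1 of 8, MT1A (adjusted p = 0.0296), where 460 genes were called in all, beside 73 in the main edgeR fit. With the block edgeR also called MT1A (1.88 ± 0.48, adjusted p = 0.0446), where 4.33% of all genes were called. That block is uncertain here, because same-numbered libraries of some groups in the interaction correlated weakly (r = 0.0133 for BRM and double knockdown replicate 2). Without BRM replicate 3 the edgeR adjusted p was 0.0164, and it ran up to 0.429 with another library left out.

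The headers of the authors' deposited tables do not name the group each knockdown was set against. Among the 8 genes, the main fit and those tables called the same genes at an adjusted p under 0.05. The share of all genes called in those tables was not computed, so their values are given as a description. For BRG1 knockdown the authors' deposited table gave log2 fold changes of 2.89 for MT1A (adjusted p = 3.16e-14) and 2.65 for MT2A (adjusted p = 0.000116). For double knockdown the authors' deposited table gave 4.16 for MT1A (adjusted p = 2.36e-29), 3.72 for MT1M (adjusted p = 0.00119) and 2.12 for MT2A (adjusted p = 0.00321). For BRM knockdown the adjusted p in the authors' deposited table ran from 0.444 for MT1A to 0.989 for MT1G and SLC30A1.

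The genes outside the family whose log2 CPM followed that of MT2A most closely over the 15 libraries, among 11896 with a mean of at least 2 CPM, were RGS19 (Pearson r = 0.973), MYADM (0.970), PNP (0.967) and ADA (0.967). PNP and ADA code for the purine salvage enzymes purine nucleoside phosphorylase and adenosine deaminase, and RGS19 for a regulator of G-protein signalling. PNP had 124 to 188 CPM in BRG1 knockdown, 26.2 to 51.3 CPM in BRM knockdown and 120 to 200.2 CPM in double knockdown, against 41.2 to 77.6 CPM in NS. For SLC30A1 the closest were SDE2 (r = 0.898), TBC1D20 (0.857), EDEM1 (0.855) and ZNF845 (0.852). The libraries share groups and sets, so these values describe likeness of pattern and carry no test.

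**Figure D4:**
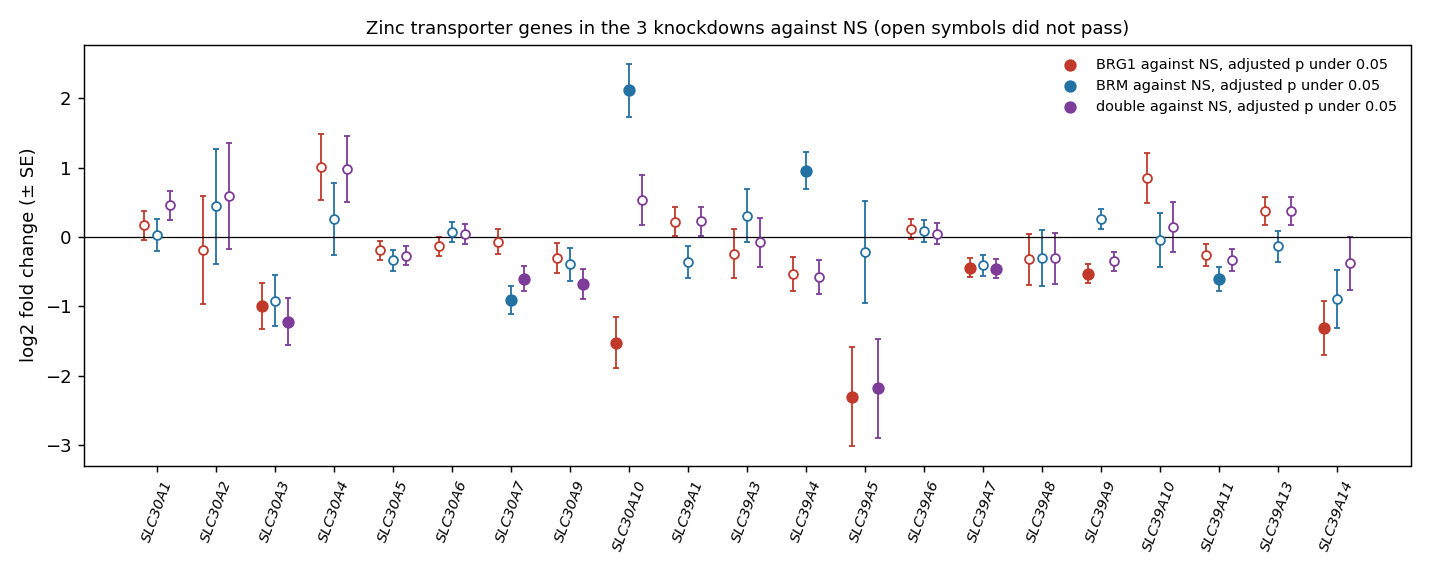
Log2 fold change against NS (± SE, edgeR with group means) of SLC30A1 and the other tested zinc transporter genes, for BRG1, BRM and double knockdown. Filled points passed an adjusted p under 0.05: SLC30A10 lies at −1.52 after BRG1 and 2.12 after BRM knockdown, and SLC39A5 at −2.30 after BRG1 and −2.18 after double knockdown.

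The other zinc transporters were taken as lists. Besides SLC30A1, 8 SLC30 genes were tested, most of which code for carriers that move zinc out of the cytosol. Of these 8, 0 rose and 2 fell after BRG1, 1 rose and 1 fell after BRM, and 0 rose and 3 fell after double knockdown. In these comparisons 22.5%, 13.9% and 21.6% of all genes were called. In the fit with the set as a term 0 rose and 3 fell, 1 rose and 3 fell, and 0 rose and 3 fell, where 39.1%, 32% and 38.6% of all genes were called. SLC30A10, known as a manganese exporter, had 0.907, 1.45, 3.70 and 3.19 CPM in BRG1 knockdown libraries and 33.6, 30.7 and 22.4 CPM in BRM knockdown libraries, against 6.55, 5.53, 7.38 and 7.11 CPM in NS libraries. It fell by 1.52 ± 0.37 after BRG1 knockdown and rose by 2.12 ± 0.38 after BRM knockdown (SE, edgeR adjusted p = 0.00836 and 0.00215). SLC30A3, a carrier into vesicles, fell by 0.99 ± 0.33 after BRG1 and by 1.22 ± 0.34 after double knockdown (edgeR adjusted p = 0.0433 and 0.018). Its level was 0.261 to 0.688 CPM in BRG1 knockdown and 0.337 to 0.458 CPM in double knockdown, against 0.825 to 1.01 CPM in NS. These SLC30A3 values therefore rest on few reads. SLC30A7, a carrier into the Golgi, fell by 0.90 ± 0.20 after BRM and by 0.60 ± 0.18 after double knockdown (edgeR adjusted p = 0.00893 and 0.0311), and SLC30A9 fell by 0.67 ± 0.22 after double knockdown (edgeR adjusted p = 0.0402). The list's median log2 fold change was −0.19, −0.13 and −0.11 in the BRG1, BRM and double knockdowns.

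Of 12 tested SLC39 genes, the importers that bring zinc into the cytosol, 0 rose and 4 fell after BRG1, 1 rose and 1 fell after BRM, and 0 rose and 2 fell after double knockdown, beside the same shares of all genes. Once the set entered the fit 2 rose and 4 fell after BRG1, 1 rose and 3 fell after BRM, and 0 rose and 3 fell after double knockdown. SLC39A5 had 1.82, 2.07, 14.2 and 17.1 CPM in BRG1 knockdown libraries and 5.52, 4.65, 7.02 and 21.2 CPM in double knockdown libraries, against 34.5, 35.6, 55.9 and 48.2 CPM in NS libraries, with no overlap. It fell by 2.30 ± 0.71 after BRG1 and by 2.18 ± 0.71 after double knockdown (SE, edgeR adjusted p = 0.0311 and 0.0406). SLC39A14, a liver importer of zinc, iron and manganese, fell by 1.32 ± 0.39 after BRG1 knockdown (edgeR adjusted p = 0.0248), SLC39A9 by 0.53 ± 0.14 (edgeR adjusted p = 0.012) and SLC39A7 by 0.44 ± 0.14 (edgeR adjusted p = 0.034). SLC39A7, which releases zinc from the endoplasmic reticulum, fell by 0.45 ± 0.14 after double knockdown too (edgeR adjusted p = 0.0311). After BRM knockdown SLC39A4 rose by 0.95 ± 0.27 and SLC39A11 fell by 0.60 ± 0.17 (edgeR adjusted p = 0.028 for both). The list's median log2 fold change was −0.29, −0.18 and −0.32 in the BRG1, BRM and double knockdowns, beside 0.02, 0.03 and 0.02 over all genes tested. All 15 calls in the SLC30 and SLC39 lists were also made with the set as a term and had 1 sign in both sets, and 9 passed within each set. SLC39A5 was −1.77 and −1.95 in replicates 3 and 4 and −4.17 and −2.78 in replicates 1 and 2, after BRG1 and double knockdown in that order. The BRM effect on SLC39A4 was 1.61 in replicates 3 and 4 and 0.44 in replicates 1 and 2, and differed between them (edgeR adjusted p = 0.0407).

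MTF1, the zinc-sensing activator, had 28.2, 30.8, 19.7 and 19.5 CPM in BRG1 knockdown libraries and 26.6, 27.2, 26.8 and 20.5 CPM in double knockdown libraries, against 19.4, 18.3, 14.9 and 16.8 CPM in NS libraries. All BRG1 and double knockdown libraries lay above all NS libraries. The log2 fold change was 0.50 ± 0.19 after BRG1 and 0.55 ± 0.19 after double knockdown and did not pass (edgeR adjusted p = 0.0691 and 0.0508). With the block the values were 0.48 ± 0.14 and 0.55 ± 0.14 and passed (edgeR adjusted p = 0.0148 and 0.00733). After BRM knockdown MTF1 had a log2 fold change of 0.04 ± 0.20 (edgeR adjusted p = 0.93).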

How the data were processed

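RNA was sequenced from HepG2 cells in 4 groups (15 libraries). The authors deposited estimated counts per gene symbol, whole numbers as deposited, from 11500149 to 27187991 per library. The submitters' processing notes name kallisto, DESeq2 and GRCh38, with tool versions, strand setting and annotation not given in the sources used here. The authors also deposited, per the file headers, a table per knockdown with a mean signal (normalised mean count), a log2 fold change with its error, a test statistic (score) and a p-value with its adjusted value. Only log2 fold changes and adjusted p-values of these were used.

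All other values were computed from the deposited estimated counts. The design written beforehand assumed counts, and the same test was kept because the estimated counts are whole numbers. Genes were filtered with filterByExpr, scaled by TMM and tested with edgeR 4.0.16 quasi-likelihood tests (R 4.3.3) in 1 fit of all 15 libraries with group means, for 7 contrasts, with Benjamini-Hochberg adjustment over 14621 genes and a threshold of 0.05, two-sided. DESeq2 1.42.0 was an alternative. CPM used TMM-scaled library sizes. Each SE given with an edgeR value is the absolute log2 fold change divided by the square root of its F statistic. The fit was also run on simulated data. These held no difference between library sets, so the run does not bear on the set differences described here. Levels per kilobase used the longest principal protein-coding transcript of GENCODE v29. Likeness was Pearson's r of log2 CPM (prior count 2) over 15 libraries among genes averaging at least 2 CPM, and the 4 highest genes were named for MT2A and for SLC30A1.

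The labels give the groups the same replicate numbers. Deviations from group means of same-numbered libraries correlated at 0.427 to 0.565 between BRG1 knockdown and NS, at 0.179 to 0.454 between double knockdown and NS and at 0.104 to 0.532 between BRG1 and BRM knockdown, so the replicate number was used there as a block beside the main fit. For the other pairs of groups the correlations ran from 0.0578 to 0.659 between BRG1 and double knockdown, from 0.0133 to 0.589 between BRM and double knockdown and from 0.0733 to 0.527 between BRM knockdown and NS. These ranges overlap those of the pairs above, and the pairs were divided by their lowest value alone. This pairing comes from the data and the shared numbers, and no label gives its meaning. Correlations between libraries with different numbers were not computed, so a shared number cannot be told apart here from a shared library set. The 8 genes and all gene lists were chosen with earlier results of these data known. From each list the text names MTF1, NR3C1 and members called in a knockdown against NS, up to 4 per list and comparison by smallest adjusted p. Intervals on sums of counts cover counting error only.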

Additional observations from a re-analysis of the deposited data

Results flagged for a closer look

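MT1M in NS had 1 library far from the others. NS replicate 3 stood at 2.03 CPM, and its gap to the next library was 0.908 of the whole NS range, above Dixon's critical value for 4 samples. Chance gives about 1 such library in 20 groups tested, and 27 groups were tested. Without it the BRG1 value of MT1M passed (adjusted p = 0.0258).

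The effect of BRG1 knockdown on SLC30A1 differed between library sets, by −1.01 on the log2 scale for replicates 3 and 4 against replicates 1 and 2 (edgeR adjusted p = 0.0429). The effect of BRM knockdown on MT2A also differed between library sets, by 1.86 on the log2 scale for replicates 3 and 4 against replicates 1 and 2 (edgeR adjusted p = 0.0377). Among the other genes named, the double knockdown effect on HMOX1 differed by 1.56 (edgeR adjusted p = 0.0114) and the BRM effect on SLC39A4 by 1.25 (edgeR adjusted p = 0.0407), in the same direction of subtraction. In the set of replicates 3 and 4 the BRM differences rest on 1 BRM library. What the sets share is not given by the labels, and its part in these differences was not tested.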

How the results depend on the processing

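Results were recomputed with DESeq2, with DESeq2's size factors in edgeR, without a low-count filter, with the replicate block, with the set as a term, within each set, with only the groups compared, and with each of the 15 libraries left out. The set term combined with a library left out, and the difference of each effect between sets, were added after seeing the data. Under the alternatives that keep all 15 libraries, MT2A after BRG1 knockdown and MT1A after BRG1 and double knockdown, against NS, kept their direction and calls, and MT2A after double knockdown kept its direction and lost its call without the low-count filter (adjusted p = 0.0539). The replicate block moved counts of calls by over 1.5 times as given here. Same-numbered libraries correlated at 0.104 or more for BRG1 and double knockdown against NS and for BRG1 against BRM knockdown. These correlations do not tell a shared number from a shared library set. In the other comparisons the lowest correlation was 0.0133 to 0.0733 and the highest 0.527 to 0.659, and the samples are taken to share only a number. For the interaction, which uses all 4 groups, a fit of only the groups compared is the same fit and was not run. The cause of these changes was not tested. For BRG1 against NS, 3284 genes and 2 of the 8 were called, and genes called came to 5318 with the replicate block, 5720 with the set as a term and 5645 with replicates 1 and 2 alone. Of the 8, 4 passed with the replicate block, 4 with the set as a term and 5 with replicates 1 and 2 alone. For BRM against NS, 2035 genes and 0 of the 8 were called, and genes called came to 4153 with the replicate block, 4684 with the set as a term, 4064 with replicates 1 and 2 alone, 3061 with replicates 3 and 4 alone and 1002 with only the groups compared. Of the 8, 3 passed with replicates 1 and 2 alone. For double knockdown against NS, 3165 genes and 3 of the 8 were called, and genes called came to 5200 with the replicate block, 5646 with the set as a term and 5045 with replicates 3 and 4 alone. Of the 8, 5 passed with the set as a term and 5 with replicates 1 and 2 alone. Genes called there were 4276 (replicates 1 and 2 alone). For double against BRG1 knockdown, 1582 genes and 1 of the 8 were called, and genes called came to 3259 with the replicate block, 3728 with the set as a term and 3981 with replicates 1 and 2 alone. Of the 8, 2 passed with the replicate block, 2 with the set as a term, 2 with replicates 1 and 2 alone, 2 with replicates 3 and 4 alone and 2 with only the groups compared. Genes called there were 1608 (replicates 3 and 4 alone) and 1377 (only the groups compared). For double against BRM knockdown, 2787 genes and 3 of the 8 were called, and genes called came to 5302 with the replicate block, 5718 with the set as a term and 4520 with replicates 1 and 2 alone. Of the 8, 5 passed with the set as a term and 5 with replicates 1 and 2 alone. For BRG1 against BRM knockdown, 4957 genes and 2 of the 8 were called, and genes called came to 7659 with the set as a term. Of the 8, 5 passed with replicates 1 and 2 alone. Genes called there were 7254 (replicates 1 and 2 alone). For the interaction, 73 genes and 0 of the 8 were called, and genes called came to 460 with DESeq2, 633 with the replicate block, 1061 with the set as a term, 1619 with replicates 1 and 2 alone and 243 with replicates 3 and 4 alone. Of the 8, 1 passed with DESeq2, 1 with the replicate block, 1 with the set as a term and 2 with replicates 1 and 2 alone.

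With each library left out in turn, with or without the set as a term, the calls ran over 2384 to 6155 genes and 2 to 5 of the 8 for BRG1 against NS, 959 to 5337 genes and 0 to 4 of the 8 for BRM against NS, 2316 to 6053 genes and 1 to 6 of the 8 for double knockdown against NS and 934 to 4133 genes and 0 to 2 of the 8 for double against BRG1 knockdown, and over 1951 to 6041 genes and 1 to 6 of the 8 for double against BRM knockdown, 3929 to 7852 genes and 2 to 5 of the 8 for BRG1 against BRM knockdown and 38 to 2284 genes and 0 to 2 of the 8 for the interaction. With the replicate block the sign turned for MT1E (−0.32) in BRM against NS, MT1X (0.26) in double knockdown against NS, MT1E (0.054) in double against BRG1 knockdown, MT1E (0.37) in the interaction. With the set as a term the sign turned for MT1E (−0.046) in BRM against NS, MT1X (0.21) in double knockdown against NS, MT1E (0.043) in double against BRG1 knockdown, MT1E (0.089) in the interaction. With replicates 1 and 2 alone the sign turned for MT1E (−1.002), MT1F (−0.63) and MT1G (−0.29) in BRM against NS, MT1X (0.55) in double knockdown against NS, MT1E (0.12) and SLC30A1 (−0.085) in double against BRG1 knockdown, MT1F (0.0699) in double against BRM knockdown, MT1E (1.12), MT1F (0.71), MT1G (0.083) and SLC30A1 (−0.39) in the interaction. With replicates 3 and 4 alone the sign turned for SLC30A1 (−0.34) in BRG1 against NS, MT1A (0.0722), MT1X (0.23) and SLC30A1 (−0.16) in BRM against NS, MT1X (−0.46) in double against BRM knockdown, MT1X (−0.47) and SLC30A1 (−0.18) in BRG1 against BRM knockdown, MT1X (−0.22) and MT2A (−0.61) in the interaction. With only the groups compared the sign turned for SLC30A1 (−0.024) in BRM against NS. With no filter on low counts the sign turned for SLC30A1 (−0.0095) in BRM against NS.

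Leaving out 1 library turned the sign of some log2 values that had not passed. In BRG1 against NS the range was −1.20 to 0.85 for MT1F, −1.25 to 0.96 for MT1G, −0.63 to 0.75 for MT1X and −0.016 to 0.36 for SLC30A1. In BRM against NS the range was −3.21 to 1.04 for MT1E, −3.60 to 2.12 for MT1F, −5.06 to 1.60 for MT1G, −1.53 to 2.77 for MT1M, −3.14 to 0.59 for MT1X and −0.13 to 0.19 for SLC30A1. In double knockdown against NS the range was −1.08 to 1.04 for MT1F, −1.50 to 0.60 for MT1G and −0.49 to 0.89 for MT1X. In double against BRG1 knockdown the range was −0.35 to 0.29 for MT1E, −0.40 to 0.71 for MT1F, −0.92 to 0.30 for MT1G and −0.24 to 0.59 for MT1X. In double against BRM knockdown the range was −1.64 to 3.11 for MT1F, −1.57 to 4.12 for MT1G and −0.24 to 3.05 for MT1X. In BRG1 against BRM knockdown the range was −1.83 to 2.92 for MT1F, −1.27 to 4.48 for MT1G, −0.39 to 2.89 for MT1X and −0.073 to 0.25 for SLC30A1. In the interaction the range was −1.08 to 3.17 for MT1E, −1.93 to 3.80 for MT1F, −1.97 to 4.70 for MT1G, −0.38 to 3.94 for MT1M, −0.45 to 3.29 for MT1X and −0.30 to 2.09 for MT2A. Depth limits MT1M (28 counts in NS), MT1L, and the BRM values of MT1A (3 and 10 counts in replicates 1 and 2). What replicates 3 and 4 share cannot be told apart from the library set. BRM has 1 library in that set. Values of single MT1 genes depend on how reads shared between paralogs were divided, and the sum over the family was therefore also described.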

Other observations

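Of 13 metal and oxidant response genes, 2 rose and 1 fell after BRG1 knockdown, 3 rose and 1 fell after BRM knockdown, and 4 rose and 0 fell after double knockdown, with median log2 fold changes of 0.34, 0.10 and 0.40, where 22.5%, 13.9% and 21.6% of all genes were called. In the fit with the set as a term 6 rose and 2 fell, 3 rose and 3 fell, and 7 rose and 1 fell, where 39.1%, 32% and 38.6% of all genes were called. HMOX1, which codes for the haem-degrading enzyme haem oxygenase 1, had 173, 154, 162 and 146 CPM in BRG1 knockdown libraries, 199, 336 and 354 CPM in BRM knockdown libraries and 409, 425, 958 and 775 CPM in double knockdown libraries, against 111, 108, 84.4 and 69.99 CPM in NS libraries. Every knockdown library lay above every NS library. HMOX1 rose by 1.67 ± 0.30 after BRM and by 2.78 ± 0.29 after double knockdown (SE, edgeR adjusted p = 0.00206 and 2.04e-05), and its log2 fold change of 0.76 ± 0.28 after BRG1 knockdown did not pass (edgeR adjusted p = 0.0623). HSPA1A, a heat shock chaperone gene, rose by 0.97 ± 0.19 after BRM and by 1.63 ± 0.18 after double knockdown (edgeR adjusted p = 0.00378 and 2.96e-05). Its paralog HSPA1B fell by 0.70 ± 0.15 after BRG1 knockdown and rose by 0.69 ± 0.16 after BRM and by 0.73 ± 0.15 after double knockdown (edgeR adjusted p = 0.00383, 0.0117 and 0.00317), and reads shared by this near-identical pair may be divided between them. The co-chaperone gene DNAJB1 rose by 0.66 ± 0.18 after BRG1 and by 0.80 ± 0.18 after double knockdown (edgeR adjusted p = 0.015 and 0.00525). GCLC, which codes for a glutathione synthesis enzyme, rose by 0.49 ± 0.17 after BRG1 knockdown (edgeR adjusted p = 0.0464), and the cystine carrier gene SLC7A11 fell by 1.79 ± 0.38 after BRM knockdown (edgeR adjusted p = 0.00642).

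Of 10 copper handling genes, 1 rose and 1 fell after BRG1 knockdown, 1 rose and 1 fell after BRM knockdown, and 0 rose and 1 fell after double knockdown, with median log2 fold changes of 0.01, 0.11 and −0.03. Once the set entered the fit 2 rose and 1 fell, 2 rose and 2 fell, and 1 rose and 1 fell. The copper exporter gene ATP7A rose by 0.99 ± 0.24 after BRG1 knockdown (edgeR adjusted p = 0.00744). The copper importer gene SLC31A1 fell by 0.92 ± 0.30 after BRG1 and by 0.90 ± 0.30 after double knockdown (edgeR adjusted p = 0.0419 and 0.0481). After BRM knockdown CCS, a copper chaperone gene, rose by 0.80 ± 0.21, and CP, which codes for ceruloplasmin, fell by 2.999 ± 0.89 (edgeR adjusted p = 0.0236 and 0.0366). Glucocorticoids also raise metallothionein transcription, and of 8 tested glucocorticoid response genes 1 rose and 2 fell in each of the 3 knockdowns, and with the set as a term 2 rose and 2 fell after BRG1, 3 rose and 3 fell after BRM, and 2 rose and 3 fell after double knockdown. DUSP1, a phosphatase gene, rose by 1.67 ± 0.30 after BRG1, 1.21 ± 0.32 after BRM and 1.86 ± 0.31 after double knockdown (edgeR adjusted p = 0.0013, 0.0211 and 0.000601). FKBP5, a receptor co-chaperone gene, fell by 0.72 ± 0.16, 0.63 ± 0.17 and 0.53 ± 0.16 in the BRG1, BRM and double knockdowns (edgeR adjusted p = 0.00406, 0.024 and 0.0248). TAT, a liver amino acid enzyme gene, fell by 1.14 ± 0.30 after BRG1 and by 1.35 ± 0.30 after double knockdown, and SGK1 fell by 1.73 ± 0.29 after BRM knockdown (edgeR adjusted p = 0.0133, 0.00549 and 0.00138). The receptor gene NR3C1 did not pass in any of the 3 (log2 fold changes of 0.09 ± 0.26, 0.77 ± 0.28 and 0.66 ± 0.26 in the BRG1, BRM and double knockdowns, edgeR adjusted p = 0.852, 0.0821 and 0.0865). Hepatocyte markers moved in these libraries too, with 0 of 10 higher and 7 lower after BRG1, 1 higher and 1 lower after BRM, and 0 higher and 3 lower after double knockdown. Fitted with the set as a term, 0 were higher and 9 lower after BRG1, 6 higher and 1 lower after BRM, and 0 higher and 4 lower after double knockdown. Beside the copper, glucocorticoid and hepatocyte counts, 22.5%, 13.9% and 21.6% of all genes were called after BRG1, BRM and double knockdown. With the set as a term these shares were 39.1%, 32% and 38.6%. The part of the hepatocyte markers in these values was not tested. All 25 calls in the metal and oxidant, copper and glucocorticoid lists were also made with the set as a term and had 1 sign in both library sets, and 17 passed within each set. CP after BRM knockdown was −3.50 in replicates 3 and 4, with 1 BRM library, and −1.95 in replicates 1 and 2, and with the replicate block it did not pass (edgeR adjusted p = 0.0535).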
